A study of Mus musculus with 12 samples.

Results

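The comparison described here sets neurons induced by the FIBCL mixture against the SCDM/FGF control, both derived from cultured glial cells of the mouse cochlea. It comprised 6 of the 12 RNA-seq libraries of the series, 3 of FIBCL and 3 of SCDM/FGF, chosen by their labels. The labels call the 3 libraries of a group biological replicates, without saying whether they came from separate dissections. All cells came from the modiolus, the central core of the cochlea, of postnatal day 4 mice of a mixed C57Bl6 and FVB/N background. Both sexes and several animals were pooled in a dissection, the cells were grown as spheres in a medium with EGF, bFGF, IGF and heparan sulfate, and differentiation lasted 14 days according to the labels. SCDM/FGF was DMEM/F12 with B27 and N2, bFGF at 100 ng/ml, and the neurotrophins BDNF and NT3, each at 50 ng/ml. FIBCL was Neurobasal with B27, N2 and GlutaMax, Forskolin at 20 μM, ISX9 at 20 μM, I-BET at 1 μM, CHIR99021 at 10 μM, LIF at 1000 U/ml and bFGF, for which the labels give both 50 and 100 ng/ml. No BDNF or NT3 is listed for FIBCL, so the small molecules, LIF, the neurotrophins and the base medium differed together and their parts cannot be told apart. In the deposited table these libraries are headed FIBC, a name that also stands for the mixture lacking LIF, whereas their labels say FIBCL and list it. SCDM, the same control without bFGF, and the undifferentiated spheres, with 3 libraries each, served to show the levels of the same genes before and without the added bFGF.

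Cochlear glia are Schwann cells, which myelinate the fibres of the spiral ganglion neurons, and satellite cells, which wrap their cell bodies. Spiral ganglion neurons carry sound signals from the hair cells to the brainstem and are not replaced in mammals when they are lost. Forskolin activates adenylyl cyclase and raises cAMP, CHIR99021 inhibits GSK3 and stabilises beta-catenin, I-BET compounds displace BET proteins from acetylated chromatin, ISX9 is a neurogenic isoxazole, and LIF signals through gp130 and STAT3. bFGF, which both media contained, signals through FGF receptors and ERK. This control therefore serves to separate the added FGF from the rest of the mixture, apart from the medium and the neurotrophins.

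Levels are given as scaled TPM, a measure of transcript abundance per gene length and library total. The libraries were rescaled to a common trimmed mean of log2 ratios over expressed genes, which leaves single genes free to differ. Differences are given as log2 fold changes of scaled TPM + 1. The depth of the libraries is unknown because TPM does not keep it. The libraries of each group correlated with each other at r = 0.983 to 0.985 across genes, and FIBCL with SCDM/FGF libraries at 0.795 to 0.812. The 10 most abundant genes took 23.9% to 26.9% of the listed TPM in FIBCL and 14.9% to 15.7% in SCDM/FGF. Mitochondrially encoded genes took 10.0% to 10.3% against 4.42% to 4.99%, and genes annotated as rRNA 3.19% to 5.25% against 0.411% to 0.601%. The part of these differences in the results below was not tested. The libraries were of bulk cultures, in which fewer cells of a type and less RNA per cell cannot be told apart.

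Of 16016 genes tested in limma with Benjamini-Hochberg adjustment, 1116 (6.97%) were called higher and 1569 (9.8%) lower in FIBCL than in SCDM/FGF. A gene was called when its adjusted p was under 0.05 and its log2 fold change was 1.5 or more in either direction. At the adjusted p alone, which is what "rose" and "fell" mean below, 5205 genes (32.5%) rose and 6122 (38.2%) fell. The libraries of the groups did not overlap for 11672 genes (72.9%), and the median difference over all genes was −0.05. Among the called genes 31 were higher and 101 lower by at least 5 on the log2 scale. A gene was listed at 0 in all SCDM/FGF libraries in 63 of the higher calls and at 0 in all FIBCL libraries in 81 of the lower ones. Without rescaling, the median of all genes moved to −0.31 and the calls to 845 higher and 1890 lower, so that the share of higher calls was 30.9% in place of 41.6%.

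Genes of neuropeptide secretion and of the neuronal cytoskeleton made up 6 of the 12 largest differences upward. Vgf (chr5:137026392-137033351 in GRCm38), which encodes a secreted neuropeptide precursor, had 574, 495 and 513 scaled TPM in the FIBCL libraries and 1.12, 1.41 and 1.49 in those of SCDM/FGF, a difference of 7.82 ± 0.10 (SE, adjusted p = 1.07e-13). Npy, neuropeptide Y, stood at 203, 239 and 225 against 0.675, 0.392 and 1.05, a difference of 7.05 ± 0.26. Nts, which encodes neurotensin, was listed at 113, 126 and 129 against 0 in each SCDM/FGF library. The rule that chose these 3 peptides required that FIBCL and SCDM/FGF libraries not overlap. The SCDM libraries without bFGF were low too, with Vgf at 0.457 to 0.538. Chga, chromogranin A of the dense-core vesicles, stood at 90.4, 81.5 and 88.3 against 0.0391, 0.161 and 0.

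**Figure D1:**
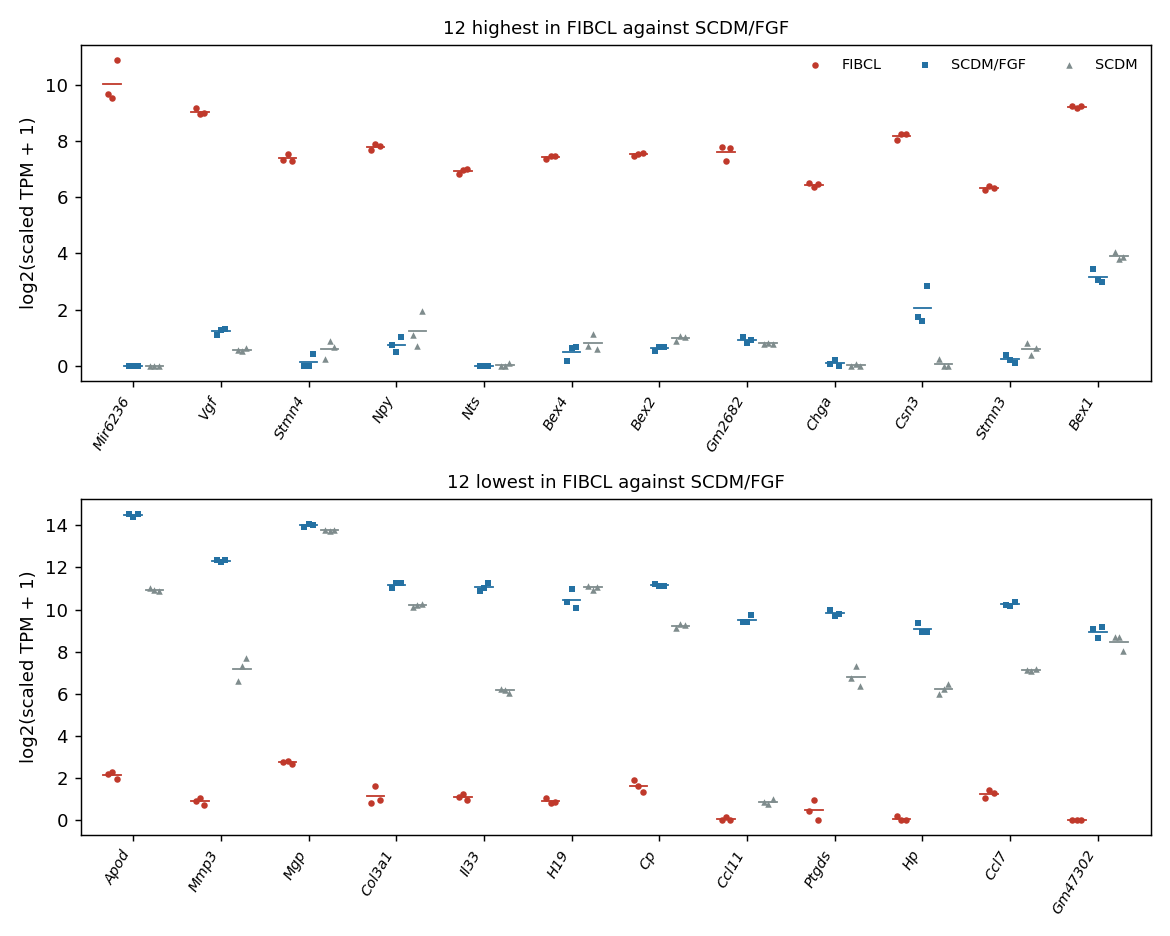
Log2(scaled TPM + 1) in each library of FIBCL (red circles), SCDM/FGF (blue squares) and SCDM (grey triangles) for the 12 genes with the highest and the 12 with the lowest log2 fold change of FIBCL against SCDM/FGF, with a bar at each group's mean. The genes were chosen for having no overlap between FIBCL and SCDM/FGF, and for Ccl11 the SCDM libraries lie near FIBCL.

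The stathmins Stmn4 (7.25 ± 0.24) and Stmn3 (6.11 ± 0.14), which regulate microtubules in neurons, and the brain-expressed X-linked genes Bex4 (6.94 ± 0.18), Bex2 (6.91 ± 0.11) and Bex1 (6.07 ± 0.10) were also among the 12. Bex1 was the most abundant of these, at 605, 579 and 607 scaled TPM against 9.77, 7.27 and 6.97. Csn3, a casein, differed by 6.12 ± 0.26. It was the only one of the 12 highest genes that was also called higher in SCDM/FGF than in SCDM (1.98 ± 0.26). Gm2682 differed by 6.69 ± 0.12. Mir6236, annotated as a miRNA, had the highest estimate of the 12 (10.03 ± 1.55), with 809, 734 and 1900 in FIBCL and 0 in each SCDM/FGF library. Its SE draws on the libraries of all 4 groups, so it is not the spread of these values alone.

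Neuropeptide and dense-core vesicle genes were called higher for 14 and lower for 3 of the 27 members tested of 37 listed, 21 rose and 4 fell, and the median difference was 1.52 against −0.05 for all genes. Scg5, a secretogranin that assists prohormone processing, differed by 4.67 ± 0.18. Scg2, secretogranin II, stood at 23.7, 24.6 and 20.9 in FIBCL, at 0.254, 0.282 and 0.223 in SCDM/FGF and at a mean of 5.09 in SCDM, so the bFGF of the control went with a lower level. It was called higher in FIBCL (4.26 ± 0.12) and lower in SCDM/FGF than in SCDM (−2.28 ± 0.12). The members named next were chosen after their values were seen. Chgb, chromogranin B, stood at 12.3, 10.3 and 12.3 against 0.137, 0.0704 and 0.264, and Scg3 (3.51), the protease inhibitor gene Pcsk1n (3.79), galanin (Gal, 2.94) and Calca (2.27, not with a pseudocount of 5), which encodes CGRP, were also called higher. The prohormone convertase gene Pcsk1 rose by 0.63 ± 0.11 and was not called. Penk, which encodes enkephalins, fell by 2.11, and Bdnf, the neurotrophin, fell by 1.60, not called with a pseudocount of 5. Ptprn, a receptor-like protein of secretory granules, was already at 76.0 to 84.6 in SCDM/FGF and at a mean of 1.45 in SCDM, and it rose further by 1.38 in FIBCL without reaching the limit.

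Because Forskolin raises cAMP, the promoters of secretory granule genes were searched for the full cAMP response element TGACGTCA, a palindrome that reads the same on both strands. The windows run from 250 bases before to 50 after the gene start and were taken from RefSeq for GRCm38.p6, with the element in capitals. Scg2 (chr1:79439977-79440276, minus strand), Chgb (chr2:132781392-132781691, plus strand) and Pcsk1 (chr13:75089607-75089906, plus strand) held it, and Chga (chr12:102554691-102554990, plus strand) did not. The window of Chga holds the half-site TGACG, which 34.1% of the tested genes with a window held in any of their windows. Among the other peptide and granule genes searched, Sst and Cartpt held the full element, and Scg5, Npy, Nts, Tac1, Vip and Adcyap1 did not. No window of Vgf or Penk was among those searched. The windows printed were chosen after the search. They set a full match in genes with a large and a small difference beside a gene with a large difference and no full match. The Chga window does hold the near match tgacgtaa, and near matches were not counted.
Scg2: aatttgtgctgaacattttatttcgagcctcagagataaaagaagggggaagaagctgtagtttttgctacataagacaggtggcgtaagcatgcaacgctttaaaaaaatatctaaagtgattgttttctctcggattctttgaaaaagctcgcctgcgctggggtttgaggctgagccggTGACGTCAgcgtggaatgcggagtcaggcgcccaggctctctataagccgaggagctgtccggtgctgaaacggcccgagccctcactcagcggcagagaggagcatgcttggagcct
Chgb: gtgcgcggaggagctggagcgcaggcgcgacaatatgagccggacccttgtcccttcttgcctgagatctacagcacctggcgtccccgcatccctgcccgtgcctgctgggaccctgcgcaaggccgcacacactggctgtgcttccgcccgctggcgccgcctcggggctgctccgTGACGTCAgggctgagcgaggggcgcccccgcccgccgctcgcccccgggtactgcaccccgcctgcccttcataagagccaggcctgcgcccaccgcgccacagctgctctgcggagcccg
Pcsk1: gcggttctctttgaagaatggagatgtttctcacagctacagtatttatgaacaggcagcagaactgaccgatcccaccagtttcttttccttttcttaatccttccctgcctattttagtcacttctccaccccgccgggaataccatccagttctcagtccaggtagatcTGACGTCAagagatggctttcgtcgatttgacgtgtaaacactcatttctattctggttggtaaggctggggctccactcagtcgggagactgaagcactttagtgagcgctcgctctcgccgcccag
Chga: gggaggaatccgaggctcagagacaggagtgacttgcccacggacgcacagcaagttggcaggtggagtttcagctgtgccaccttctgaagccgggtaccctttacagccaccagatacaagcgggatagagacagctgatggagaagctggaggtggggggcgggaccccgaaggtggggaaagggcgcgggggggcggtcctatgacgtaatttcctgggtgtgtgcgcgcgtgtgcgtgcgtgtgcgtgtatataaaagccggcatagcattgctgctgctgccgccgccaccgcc
The element began 68 bases before the start of Scg2, 72 before that of Chgb and 78 before that of Pcsk1. It was found in 588 of all 32851 windows (1.79%). Counted by gene, in any window, it was found in 3.44% of 11411 tested genes. Among these it was found in 35 of 761 (4.60%) called higher and 15 of 1115 (1.35%) called lower. The share by window and the shares by gene are not like for like. A match describes the letters of the window only.

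The list of neuronal cytoskeleton and pan-neuronal genes had the largest share of higher calls among the 24 lists. Of 36 members tested of 40, 23 were called higher and 0 lower, 29 rose and 5 fell, and the median difference was 2.64. Stmn2, a stathmin of growing axons, stood at 192, 184 and 184 against 2.43, 2.13 and 3.04 (5.74 ± 0.12). Crmp1, of the collapsin response mediators that steer growth cones, differed by 5.31 ± 0.16, and the kinesin gene Kif5c by 4.84. Tubb3, the neuronal beta-tubulin that antibody TUJ1 detects, stood at 84.6, 81.7 and 77.2 against 12.4, 9.91 and 12.7, a difference of 2.70 ± 0.09 from a control that also expressed it. The dendritic gene Map2 stood at 34.3, 33.5 and 42.6 against 5.26, 3.32 and 3.09 (2.97 ± 0.18). SCDM/FGF and SCDM did not differ in Tubb3 by the test (0.01 ± 0.09, adjusted p = 0.948).

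Several members of this list did not behave like the rest, and they were chosen after their values were seen. The light and medium neurofilament genes Nefl and Nefm were higher in FIBCL (3.91 and 2.75), and also in SCDM/FGF against SCDM (2.08 and 3.07). The heavy neurofilament Nefh stayed low, at 1.57 to 1.82 in FIBCL, and rose by 1.37. Thy1 did not differ by the test (0.13 ± 0.17), Gap43, a growth cone protein also made by Schwann cells, fell by 0.25, and Dpysl3 fell by 1.20. The neuronal splicing factor Rbfox3, whose protein is NeuN, was listed at 1.46, 0.861 and 0.525 in FIBCL and at 0 in SCDM/FGF, too low to be tested. Elavl4 was at 0.299 to 0.836 and Dcx, doublecortin, at 0 to 0.0738 in FIBCL, and neither was tested.

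**Figure D2:**
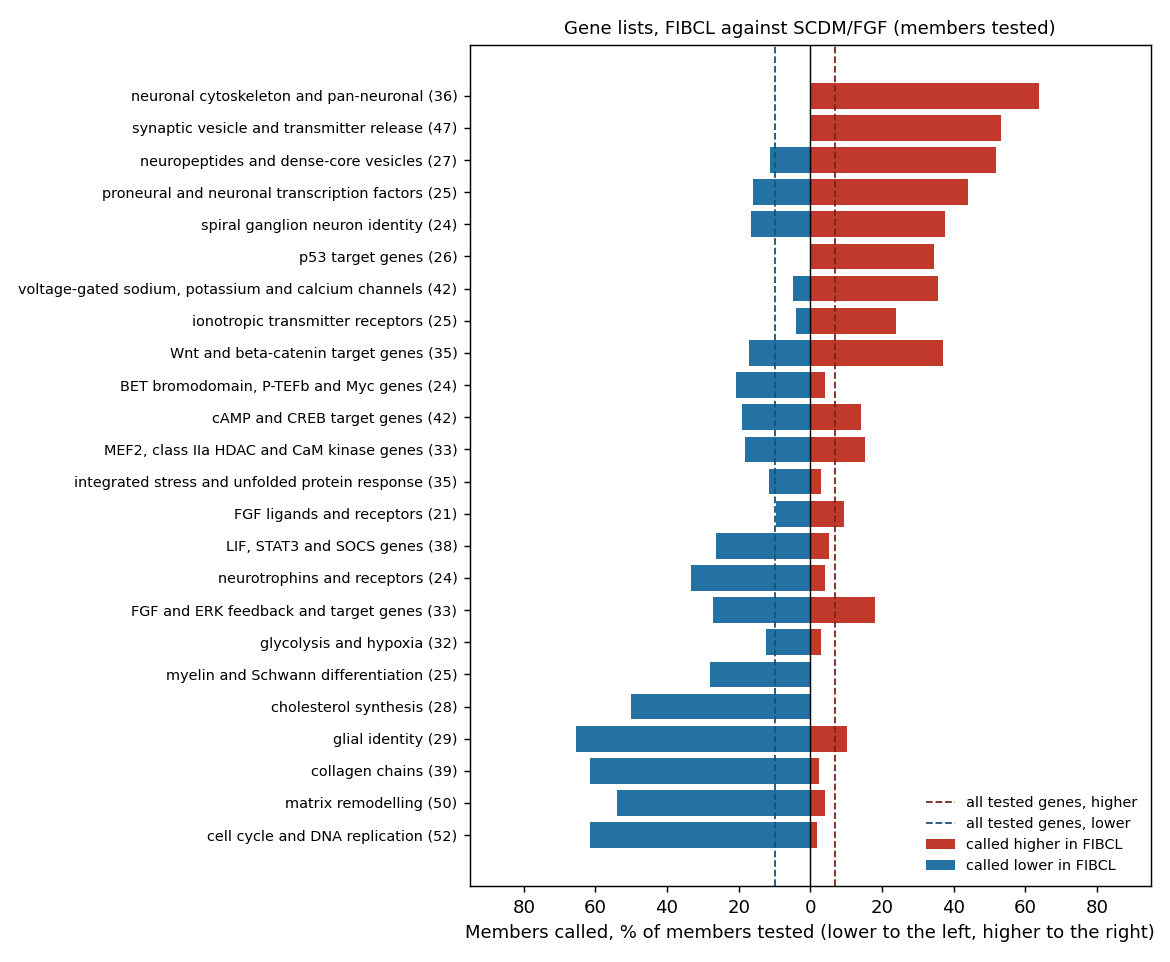
Percent of the tested members of 24 gene lists called higher (red, to the right) or lower (blue, to the left) in FIBCL than in SCDM/FGF, with the number of members tested in brackets and dashed lines at the shares of all tested genes, 6.97% higher and 9.8% lower. Neuronal, synaptic and peptide lists lie at the top with 23, 25 and 14 higher calls, and the lists of glial identity, collagens, matrix and cell cycle at the bottom with 19, 24, 27 and 32 lower calls.

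Genes of synaptic vesicles and transmitter release were higher as a group, with 25 of 47 tested members called higher, 0 called lower, 39 that rose, 4 that fell and a median of 1.53. Syp, synaptophysin of the vesicle membrane, stood at 61.5, 47.6 and 65.9 against 0.998, 0.785 and 0.802 (4.98 ± 0.14). Snap25, of the fusion machinery, stood at 37.8, 37.5 and 37.6 against 0.519, 0.221 and 0.183 (4.89 ± 0.12). Both were about as low in SCDM and in spheres, with means of 0.898 and 1.09 for Syp. Syngr3 (4.54), the active zone gene Rims2 (4.30) and the synapsin Syn1 (4.03) were also called higher, and the calcium sensor Syt1 was called with 1.93, a call lost with a pseudocount of 5. Unc13a, which primes vesicles, was at 9.04 to 10.3 in FIBCL and 9.71 to 10.4 in SCDM/FGF but at a mean of 1.47 in SCDM. Cplx2 fell by 1.33. Unc13a and Cplx2 were chosen after their values were seen.

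Voltage-gated channels and ionotropic receptors were higher in part, and many were too low to test. Of 42 channel genes tested of 59, 15 were called higher and 2 lower, 26 rose and 12 fell, with a median of 0.72. The pacemaker channel Hcn2 (3.57) and the presynaptic calcium channel Cacna1b (3.23) were among those called higher. Of 25 receptor genes tested of 41, 6 were called higher and 1 lower, 14 rose and 7 fell, with a median of 0.70. The kainate subunit Grik3 (3.26), the nicotinic subunits Chrna7 (2.93) and Chrna5 (2.83, not called with a pseudocount of 5) and the glycine receptor Glrb (2.61) were called higher. Glrb stood at 22.4 to 23.8 in FIBCL, at 2.68 to 3.63 in SCDM/FGF and at a mean of 22.0 in SCDM, so its difference from this control was not seen against SCDM (0.08). The AMPA subunit Gria1, named after its value was seen, fell by 2.21, not called with a pseudocount of 5.

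Transcription factors of neuronal differentiation were low in both groups, and 25 of 52 could be tested. Of these 11 were called higher and 4 lower, 15 rose and 7 fell, and the median was 1.37. Sox11, expressed in immature neurons, stood at 25.7, 25.5 and 28.0 against 1.86, 1.89 and 1.62 (3.30 ± 0.08). The repressor Scrt1 (3.03), Onecut2 (2.85) and Isl2 (2.84) were at 5.77 to 7.93 in FIBCL and at 0 to 0.0203 in SCDM/FGF, and their calls were lost with a pseudocount of 5. Bhlhe22 fell by 3.49. Neurod1, chosen after its value was seen, was at 2.03, 2.13 and 2.70 against 0, 0.0302 and 0 (1.70 ± 0.10, not called with a pseudocount of 5 or without rescaling).

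Of the 38 genes listed for spiral ganglion neuron identity, 24 were tested, 9 were called higher and 4 lower, 16 rose and 6 fell, and the median was 1.08. Slc17a7, the vesicular glutamate transporter VGLUT1, stood at 11.2, 10.8 and 10.4 against 0.108, 0.181 and 0.0508 (3.41 ± 0.09). The potassium channel Kcnc1 differed by 2.27 and Pou4f1, a sensory neuron factor, by 2.03, with 3.01, 2.96 and 3.27 in FIBCL and 0 in SCDM/FGF. Prox1 (1.80), at 3.96 to 3.99, was also called. Isl1 was called with 1.59 at 1.69 to 2.66. Gata3 rose to 2.53 to 3.04 from 0.284 to 0.443 and stayed just under the limit (1.49 ± 0.12). The calls of Kcnc1, Pou4f1, Prox1 and Isl1 were lost with a pseudocount of 5, and that of Isl1 also without rescaling and without FIBCL replicate 2, while Gata3 was called with a pseudocount of 0.1. In all of these settings the direction was the same. The opposite direction was held by the receptors of the neurotrophins that the control medium contained. Ntrk2, the BDNF receptor, stood at 225, 192 and 186 in SCDM/FGF and at 1.80, 2.29 and 1.67 in FIBCL (−6.11 ± 0.09), and at a mean of 41.8 in SCDM and 165 in spheres. Ntrk3, the NT3 receptor, fell by 3.18, and Eya1, an otic factor chosen after its value was seen, fell by 2.16, not called with a pseudocount of 5.

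Glial identity genes fell in the same cultures. Of 29 tested members of 30, 19 were called lower and 3 higher, 23 fell and 6 rose, and the median was −2.03. Gfap (−4.99), the Schwann cell cadherin Cdh19 (−4.66), the glutamate transporter Slc1a3 (−4.60), Fabp7 (−4.42) and the neurotrophin receptor Ngfr (−4.21) were called lower. S100b stood at 1.28 to 1.48 against 7.84 to 10.7 (−2.03). Sox10, a factor of the whole glial lineage, was lower but still present, at 10.0, 8.20 and 8.40 against 31.5, 25.7 and 35.6 (−1.69 ± 0.11), and the calls of Sox10 and S100b were lost with a pseudocount of 5. Sox2, chosen after its value was seen, was at 0.258 to 0.741 against 16.8 to 19.0 (−3.70 ± 0.12). The 3 members called higher were L1cam (2.58), an adhesion molecule that neurons share, Fbxo2 (2.49) and Ptprz1 (2.30).

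Myelin and Schwann differentiation genes were low in this control too. Of 25 tested members of 29, 7 were called lower and 0 higher, 17 fell and 4 rose, with a median of −0.76. Mbp, myelin basic protein, was at 14.4, 14.4 and 11.7 in SCDM/FGF and at 1.04, 0.394 and 2.05 in FIBCL (−2.81 ± 0.22). Erbb3, the neuregulin receptor, fell by 2.44.

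Markers of several cell types were set beside these lists, and those of neurons and glia moved with the medium. Of the 8 neuron markers 6 were tested, all 6 rose and were called higher, and their summed level was 391 to 418 in FIBCL, 17.1 to 22.3 in SCDM/FGF and 18.7 to 21.6 in SCDM. All 6 cochlear glia markers fell and 5 were called lower, with sums of 16.0 to 20.8 against 102 to 133.

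Markers of cells other than neurons and glia moved as well, and their part in the results above was not tested. Of 18 otic mesenchyme and fibroblast markers, 13 were called lower and 0 higher, 14 fell and 3 rose, with a median of −3.62 and sums of 292 to 311 in FIBCL, 5722 to 6115 in SCDM/FGF and 9660 to 10421 in spheres. Dcn, the matrix proteoglycan decorin, differed by −8.60, the collagen chains Col3a1 by −10.06 and Col1a2 by −6.71, and Pou3f4, a factor of otic mesenchyme, by −1.93. Twist1 (1.10) and Prrx1 (1.34), mesenchymal factors named after their values were seen, rose without being called. All 17 macrophage markers fell and 15 were called lower, with a median of −4.32 and sums of 214 to 252 in FIBCL, 5989 to 6372 in SCDM/FGF and 683 to 834 in spheres. The macrophage receptor Csf1r stood at 0.538, 0.295 and 0.171 against 101, 84.4 and 89.3, and the leukocyte gene Ptprc fell by 2.86, while the lysosomal Cd68, which was at 152 to 176, fell by 0.45. No defining marker of the mesenchymal or macrophage list was at 0 in all FIBCL libraries, though the macrophage marker Cx3cr1 was at 0, 0.111 and 0. In all FIBCL libraries 9 of the 17 macrophage markers and 3 of the 18 mesenchymal markers were under 1 scaled TPM.

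**Figure D3:**
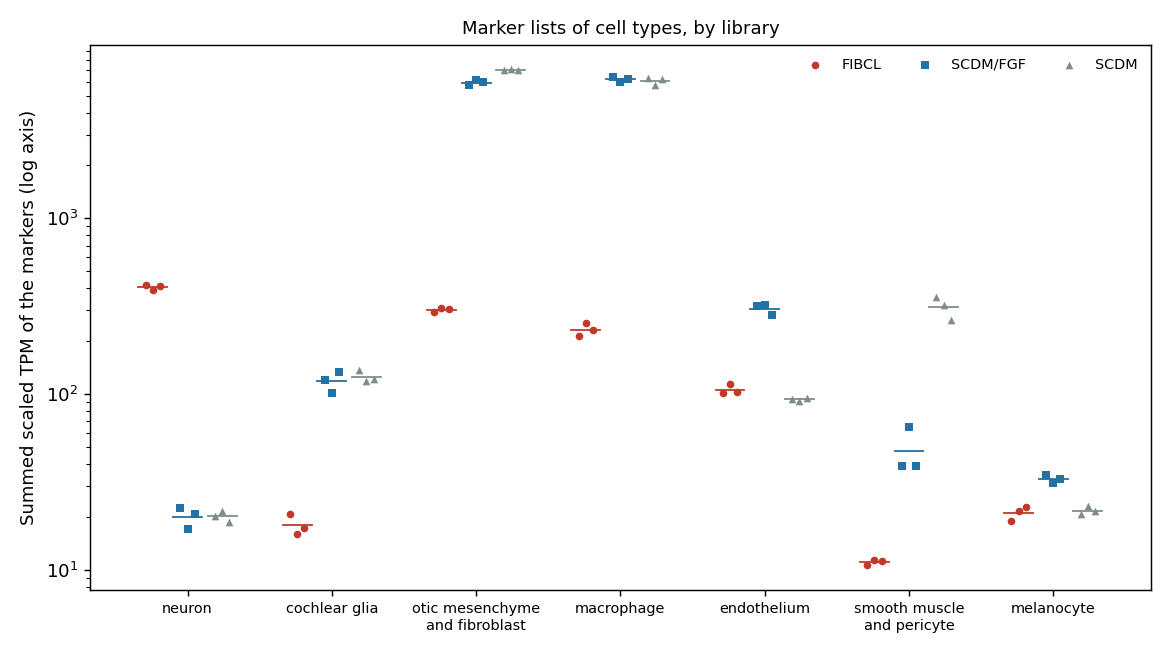
Summed scaled TPM of the marker lists of 7 cell types (log axis) in each library of FIBCL (red circles), SCDM/FGF (blue squares) and SCDM (grey triangles), with a bar at each group's mean. Neuron markers lie at 391 to 418 in FIBCL and 17.1 to 22.3 in SCDM/FGF, while glial, mesenchymal and macrophage markers lie lower in FIBCL than in both controls.

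The other marker lists were smaller or divided. Endothelial markers (9 tested of 10) gave 2 higher and 2 lower calls. Their sums were 102 to 113 in FIBCL, 280 to 321 in SCDM/FGF and 91.2 to 95.2 in SCDM. Kdr, a VEGF receptor, was called higher (2.71, not with a pseudocount of 5), while Cdh5, the cadherin of endothelial junctions, was called lower (−3.30) and was higher in SCDM/FGF than in SCDM (4.02). Smooth muscle and pericyte markers (11 tested of 12) gave 1 higher and 4 lower calls. Their sums were 10.6 to 11.3 in FIBCL, 38.6 to 64.4 in SCDM/FGF and 265 to 355 in SCDM. Oligodendrocyte and astrocyte markers (10 of 13) gave 0 higher and 8 lower calls, with a median of −3.50 and Aqp4 at 0 in FIBCL. The sums of this list were 277 to 292 in FIBCL, 456 to 498 in SCDM/FGF and 167 to 179 in SCDM. Chondrocyte and osteoblast markers (9 of 13) gave 1 higher and 3 lower calls, and adipocyte markers (4 of 7) 0 and 3. Melanocyte markers (4 of 10) gave 1 and 1, and hair cell and supporting cell markers (5 of 16) 2 and 1. Bglap of bone, Adipoq of adipocytes and Tyrp1 of melanocytes were at 0 in FIBCL, but they were low in SCDM/FGF too. There Bglap stood at 0 to 0.685, Adipoq at 0.206 to 0.315 and Tyrp1 at 0. The medians of these lists were −0.74 for endothelium, −0.83 for smooth muscle, −0.77 for cartilage and bone, −2.60 for adipocytes, −0.81 for melanocytes and −0.68 for hair and supporting cells, whose mean was 0.02. The 2 higher calls of the last list were Epcam, an epithelial adhesion gene named after its value was seen, and Prox1, which spiral ganglion neurons and supporting cells share. The hair cell factor Atoh1 was at 0 to 0.123 in FIBCL. Of the 10 blood and lymphocyte markers 1 was tested and called lower, with sums of 0.840 to 3.54 against 14.9 to 19.2.

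Collagen chains and genes of matrix remodelling fell with the mesenchymal markers, with which they share members. Of 39 collagen genes tested of 43, 24 were called lower and 1 higher, 30 fell and 4 rose, with a median of −2.04. Col3a1, the type III collagen chain (chr1:45311538-45349706 in GRCm38), stood at 2110, 2454 and 2423 in SCDM/FGF and at 0.765, 2.02 and 0.918 in FIBCL. Gm47302, annotated as a miRNA at chr1:45311673-45311813 inside Col3a1, had 401 to 570 against 0, and reads of the pair may not be separable. Col8a1 (−7.17), Col14a1 (−5.28) and Col6a3 (−5.25) were also called lower. Of 50 matrix genes tested of 51, 27 were called lower and 2 higher, 42 fell and 6 rose, with a median of −2.05. Mmp3, stromelysin, stood at 5305, 4872 and 5200 against 0.860, 1.07 and 0.617 (−11.44 ± 0.21), and Sparcl1 (−8.29) and the small proteoglycan Lum (−8.22) were also called lower. Postn fell by 6.88. Acan, the cartilage proteoglycan aggrecan, was called higher (1.96, not with a pseudocount of 5) against a control in which bFGF went with a lower level than SCDM (−5.45).

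The genes with the lowest difference were also compared between the controls with and without bFGF. Of the 12 with the lowest difference, 8 were called higher in SCDM/FGF than in SCDM, a contrast in which 462 genes (2.88%) were called higher and 315 (1.97%) lower. The comparisons share the SCDM/FGF libraries, so these counts are not independent of each other. Of the 1569 genes called lower in FIBCL, 277 were called higher and 67 lower in SCDM/FGF against SCDM. Ccl11, the chemokine eotaxin, stood at 682, 683 and 841 in SCDM/FGF, at 0.709 to 0.991 in SCDM and at 0, 0.0984 and 0 in FIBCL. It differed by −9.47 ± 0.09 from SCDM/FGF and by −0.83 from SCDM, so a comparison with SCDM would not have called it. Il33, an alarmin, differed by −9.96 from SCDM/FGF and by −5.07 from SCDM, and Ccl7 by −8.99 and −5.88.

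Apod, apolipoprotein D, had the lowest difference of the 12, with 23488, 21399 and 23665 in SCDM/FGF and 3.53, 3.91 and 2.90 in FIBCL (−12.33 ± 0.08, adjusted p = 2.2e-15), and was at a mean of 1980 in SCDM. Mgp, an inhibitor of matrix calcification, was at 15499, 16867 and 16566 against 5.81, 5.90 and 5.39 (−11.25 ± 0.05), and SCDM/FGF differed from SCDM by 0.23 ± 0.05. Among the 12 were also the noncoding H19 (−9.56), which was not called between SCDM/FGF and SCDM (−0.59), and ceruloplasmin (Cp, −9.53), prostaglandin D synthase (Ptgds, −9.37) and haptoglobin (Hp, −9.01).

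Because bFGF was in both media, feedback and target genes of FGF and ERK were compared in all 3 groups. In SCDM/FGF against SCDM, 17 of 33 were called higher and 0 lower, 29 rose, and the median was 1.54. In FIBCL against SCDM/FGF, 6 were called higher and 9 lower, 8 rose and 21 fell, with a median of −0.57. The list did not move as a block. Etv4, an ERK-induced ETS factor, stood at 36.9, 31.8 and 34.2 in FIBCL, at 28.9, 35.1 and 36.5 in SCDM/FGF and at a mean of 6.61 in SCDM. Dusp6, the ERK phosphatase, was at 144, 146 and 127, at 190, 167 and 179, and at 30.2. These genes were near the bFGF control in FIBCL (0.04 ± 0.13 and −0.36 ± 0.07) and above SCDM (2.22 and 2.17). Etv5 rose by 0.43.

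The sprouty genes, which inhibit receptor tyrosine kinase signalling, were lower in FIBCL. Spry1 (−2.94), Spry2 (−2.41) and Spry4 (−1.63) were called lower, the last not called with a pseudocount of 5. Spry4 kept an intermediate level, at 9.16 to 11.0 against 32.1 to 33.2 in SCDM/FGF and a mean of 1.70 in SCDM. Fosl1, an AP-1 subunit, fell by 2.42, and Ccnd1, cyclin D1, chosen after its value was seen, fell by 2.22. In the other direction, Areg, amphiregulin, stood at 124, 124 and 155 against 5.34, 6.92 and 6.65 (4.21 ± 0.13), and at a mean of 0.136 in SCDM. The phosphatases Dusp1 (3.32) and Dusp2 (3.07) were also called higher. Areg, Dusp1, Vgf and Egr1 belong to the list of cAMP and CREB genes too, so the counts of these lists are not independent.

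**Figure D4:**
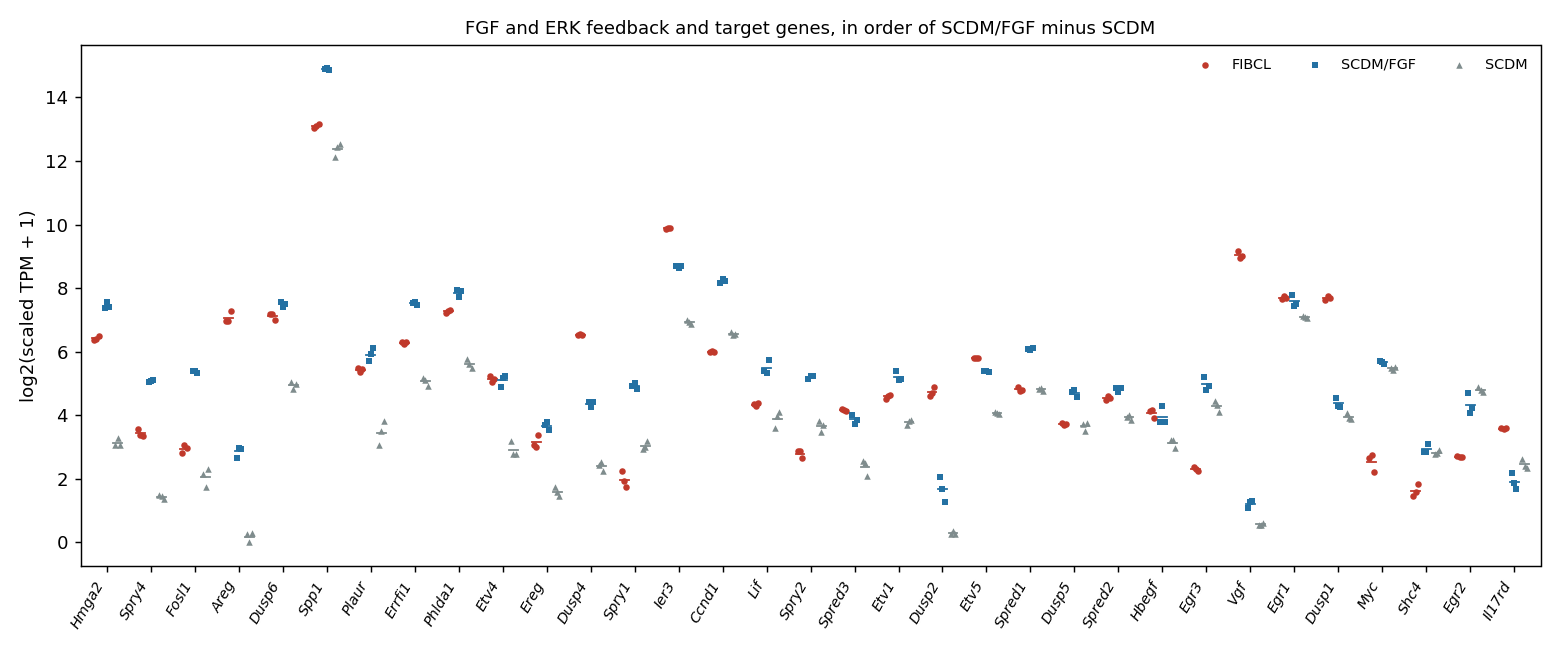
Log2(scaled TPM + 1) in each library of FIBCL (red circles), SCDM/FGF (blue squares) and SCDM (grey triangles) for 33 feedback and target genes of FGF and ERK, in order of the difference between SCDM/FGF and SCDM, with a bar at each group's mean. Etv4 lies at the same height in FIBCL and SCDM/FGF, Spry1 and Myc lie lower in FIBCL, and Areg, Dusp1 and Vgf lie higher.

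FGF ligands and receptors were called for 2 higher and 2 lower of 21 tested of 31, with 8 that rose, 11 that fell and a median of −0.31. Fgf7, a ligand of mesenchyme, stood at 120, 131 and 126 against 1.18, 1.24 and 1.18 (−5.84 ± 0.10). Fgf5 fell by 2.77 and Fgf18 rose by 1.82, neither called with a pseudocount of 5. Fgfr1, named after its value was seen, fell by 0.54 and was at 177 to 179 in FIBCL. Fgfr2 was called higher (3.45 ± 0.27) at 2636, 2891 and 4208 against 231, 258 and 404. The same order of libraries was seen in Gphn (43690, 44781 and 54011 against 5054, 5809 and 7634), Cmss1 (42326, 42436 and 54360 against 4811, 5971 and 8102) and CT010467.1, annotated as rRNA (33313, 35348 and 52936 against 3605, 3885 and 5545). Together with 4 other genes, chosen after their values were seen, these 3 took 14.6% to 18.2% of the listed TPM in FIBCL and 1.90% to 2.94% in SCDM/FGF. The part of these genes in the Fgfr2 value was not tested.

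Genes of cAMP and CREB did not move one way. Of 42 tested of 47, 6 were called higher and 8 lower, 13 rose and 20 fell, with a median of −0.09, a mean of 0.14 and a median of 0.0056 when libraries were scaled to the upper quartile. Vgf and Nts led the list, and Crem, which encodes the cAMP-induced repressor ICER, was called with 68.4, 76.9 and 63.9 against 23.0, 15.5 and 20.9 (1.78 ± 0.16), a call lost without rescaling. The nuclear receptor Nr4a1 (−2.99) and the phosphodiesterase Pde4b (−2.93) were called lower. Sik1 rose by 0.42, Pde4d did not differ by the test (0.13), and Nr4a2 differed by −0.47.

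Targets of Wnt and beta-catenin were called higher for 13 and lower for 6 of 35 tested of 46, 19 rose and 13 fell, and the median was 0.67. Axin2, a direct target that limits the pathway, stood at 30.9, 29.8 and 30.4 against 3.02, 3.81 and 2.59 (2.93 ± 0.11), and SCDM/FGF differed from SCDM by 0.33 ± 0.11. Nkd1 (3.17), another feedback inhibitor, Wnt11 (4.33), Sox7 (3.35) and Notum (2.03, not called with a pseudocount of 5) were also called higher, and Sp5 was called with 1.55, a call lost without rescaling, with a pseudocount of 5 and without FIBCL replicate 3, SCDM/FGF replicate 1 or SCDM/FGF replicate 3. Znrf3 rose by 1.15. The secreted inhibitors Sfrp4 (−7.84) and Wif1 (−4.29) were called lower, and the factor Lef1 fell by 0.66.

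BET, P-TEFb and Myc genes gave 1 higher and 5 lower calls among 24 tested of 26, with 9 that rose, 7 that fell, a median of 0.08 and a mean of −0.18, and the median was −0.22 without rescaling. Hexim1, which holds P-TEFb inactive and rises in many cells under BET inhibitors, stood at 56.1, 55.4 and 59.2 against 28.0, 24.8 and 29.6 and rose by 1.03 ± 0.07, under the limit. Serpini1, which encodes neuroserpin, differed by 3.53. Myc stood at 5.31, 5.78 and 3.65 against 51.8, 50.7 and 48.5 (−3.14 ± 0.11) and did not differ between SCDM/FGF and SCDM by the test (0.20 ± 0.11). Mxd4 (−2.24) and Mxd3 (−2.31), antagonists of Myc, were called lower, Mxd3 without a call at a pseudocount of 5.

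LIF and STAT3 genes were mostly lower, although LIF was listed for FIBCL alone. Of 38 tested, 10 were called lower and 2 higher, 22 fell and 8 rose, with a median of −0.51. In SCDM/FGF against SCDM 8 were called higher and 0 lower. Socs3, a feedback inhibitor that STAT3 induces, stood at 44.8, 42.6 and 41.2 in FIBCL, at 71.2, 61.8 and 65.9 in SCDM/FGF and at a mean of 19.9 in SCDM. The protease inhibitor A2m (−6.29), the shared receptor subunit gp130, encoded by Il6st (−2.59), the acute phase gene Lcn2 (−2.57) and the cytokine Clcf1 (−2.56) were called lower. Stat3 itself, chosen after its value was seen, did not differ by the test (−0.01 ± 0.05).

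Among MEF2, class IIa HDAC and CaM kinase genes, 5 of 33 were called higher and 6 lower, 12 rose and 16 fell, with a median of −0.14. The calcineurin regulator Rcan2 differed by 2.76 and Camk1d by 2.82 at 1937, 1931 and 2509 against 247, 293 and 365. In Camk1d, as in Fgfr2, replicate 3 was the highest library of both groups. The protease Adamts1 (−4.99) and Hdac9 (−3.15) were called lower. Neurotrophins and their receptors gave 1 higher and 8 lower calls among 24 tested of 26, with 8 that rose, 13 that fell and a median of −0.54. The higher one was Ret, the receptor subunit of GDNF ligands, at 13.4, 13.5 and 13.3 against 0.264, 0.231 and 0.152 (3.57 ± 0.10), while its partner Gfra2 fell by 2.60, without a call at a pseudocount of 5.

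Cell cycle and DNA replication genes were nearly all lower in FIBCL. Of 52 tested of 53, 32 were called lower and 1 higher, 47 fell and 4 rose, and the median was −2.25. Mki67, which encodes the proliferation antigen Ki-67, stood at 0.0358, 0.0369 and 0.0394 in FIBCL and at 12.4, 15.9 and 11.1 in SCDM/FGF (−3.75 ± 0.14). The mitotic kinase Cdk1 (−5.30) and topoisomerase Top2a (−5.20) had the largest differences, and Ube2c (−4.20), Aurkb (−3.84) and Ccnb1 (−3.63) were also called lower. The mean level of Mki67 was 18.8 in SCDM and 5.45 in spheres, so the FIBCL libraries were below every other group for this gene. The gene called higher was Cdkn1a, the inhibitor p21, at 852, 887 and 893 against 249, 242 and 285 (1.76 ± 0.06), a call lost without rescaling.

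Targets of p53, among which Cdkn1a is counted, were called higher for 9 and lower for 0 of 26 tested of 27, 22 rose and 2 fell, and the median was 1.04. Perp, a membrane protein of desmosomes and p53 responses, stood at 108, 115 and 113 against 1.71, 1.03 and 2.03 (5.47 ± 0.18), and Pmaip1, the BH3-only protein NOXA, at 158, 155 and 163 against 3.13, 2.39 and 2.79 (5.41 ± 0.14). Plk3 (3.12) and Mdm2 (2.50), which encodes the ligase that degrades p53, were called too, as was Ddit4 (3.79), an inhibitor of mTORC1 that is shared with stress responses. Genes of the integrated stress and unfolded protein response gave 1 higher call, Ddit4, and 4 lower among 35, with 11 that rose, 17 that fell and a median of −0.26. The lower ones were Xbp1, a factor of the unfolded protein response (−2.91), Nupr1 (−1.97), the chaperone partner Dnajc3 (−1.73) and Herpud1 (−1.56), the last without a call at a pseudocount of 5 or with upper quartile scaling.

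Cholesterol synthesis genes fell. Of 28, 14 were called lower and 0 higher, 24 fell and 2 rose, and the median was −1.41, while in SCDM/FGF against SCDM 25 rose and 0 fell with 0 calls and a median of 0.73. Insig1, which SREBP2 induces, stood at 14.0, 12.8 and 13.5 against 137, 142 and 143 (−3.30 ± 0.04). The enzymes Idi1 (−2.98), Nsdhl (−2.57) and Hmgcs1 (−2.56) were also called lower. Glycolysis and hypoxia genes gave 1 higher and 4 lower calls among 32, with 5 that rose, 22 that fell and a median of −0.62, and 25 rose and 0 fell in SCDM/FGF against SCDM. Adm, adrenomedullin, stood at 221, 272 and 204 in SCDM/FGF, a mean of 26.3 in SCDM and 1.36, 2.31 and 0.630 in FIBCL (−6.63 ± 0.20). Eno2, the neuronal enolase isoform, was the one called higher (1.68), a call lost without rescaling.

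The most abundant transcripts changed places between the media. In SCDM/FGF osteopontin (Spp1) stood at 30324, 30828 and 29566, above 8339, 8791 and 9095 in FIBCL and a mean of 5328 in SCDM. Fth1, the ferritin heavy chain, was at 22255, 19847 and 21655 in SCDM/FGF against 2232, 2396 and 2336 in FIBCL (−3.19 ± 0.06), whereas Ftl1, the ferritin light chain, was at 6299, 6161 and 6599 in SCDM/FGF against 19030, 20305 and 19185 in FIBCL (1.62 ± 0.06, not called without rescaling). The ferritin chains thus differed in opposite directions. Apoe fell by 3.95. The mitochondrial mt-Co1 rose by 1.36 and mt-Atp8 by 1.24, and Gm28661, Gm10925 and Gm28437, listed among the most abundant genes in FIBCL, rose by 1.35, 1.49 and 1.22 and are annotated as pseudogenes on chromosome 1 that resemble mitochondrial genes, so their reads may be split with those.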

How the data were processed

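The authors trimmed paired reads of poly(A) RNA with SeqPrep and Sickle, and the labels name TopHat, Cufflinks and RSEM, while the genome build is not given in the sources used here. The deposited table holds TPM values with 2 decimals for 55487 genes, and all 12 columns matched a sample. Gene positions are those of GENCODE M21 (GRCm38), in which 55141 of the identifiers occurred. TPM does not keep depth, so no interval that needs counts was computed, and the count test planned from the study's methods was replaced by limma.

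Genes with at least 1 TPM in 3 or more of the 12 libraries were tested (16016). Libraries were rescaled by the mean log2 ratio over 8434 genes that reached 5 TPM in all libraries, after trimming 30% of the ratios at either end, and values were analysed as log2(scaled TPM + 1). One limma 3.58.1 model (R 4.3.3) of the 4 groups, with variances that follow the mean and no covariate, gave the comparisons, adjusted by Benjamini-Hochberg within each. The script was tested on simulated data made for FIBCL against SCDM/FGF with 14438 genes, in which it called 200 of 200 genes altered by 2 on the log2 scale and 0 others. The altered genes all lay above 5 TPM, the noise was the same for all genes and the other genes were left unchanged. The simulation therefore does not show how the calls behave for low genes or where most genes differ, as in these data. Fold changes of low genes are understated by the pseudocount of 1.

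The comparison, its 24 gene lists, 12 marker lists, motifs and rules were chosen with earlier results of these data known, and no test was made of a list. Named genes are the 12 highest and 12 lowest among called genes with a mean of at least 10 scaled TPM and no overlap between the groups, the 10 most abundant of each group, the defining members and the 5 largest differences of each list, and the list members that differed most between SCDM/FGF and SCDM. Some genes that this rule names are not reported here, though they count in their lists. Others are said to have been chosen after their values were seen. Same-numbered libraries deviated together at r = 0.056, −0.018 and 0.032, so the numbers do not pair them. Tables were made with Python 3.11.15 and pandas 2.3.3, and figures with matplotlib 3.10.9.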

Additional observations from a re-analysis of the deposited data

How the results depend on the processing

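The 203 genes selected by the naming rule were followed through the alternatives of scaling, filter (184 of them at 5 TPM), pseudocount, model, block and left-out library of either group. No called gene reversed there. Counted by gene and setting, 40 calls were lost, 29 of them with a pseudocount of 5, and 18 were gained. The losses fell on 32 genes and the gains on 8. The 2685 calls between FIBCL and SCDM/FGF became 1245 (477 higher and 768 lower) with a pseudocount of 5, 4457 (1927 and 2530) with a limit of 1 on the log2 scale and 11327 (5205 and 6122) at the adjusted p alone, and limma's treat, which tests against the limit, gave 1813 (739 and 1074). With the replicate block, where the number is not a pairing, there were 2690. Leaving out 1 library at a time gave 2673 to 2733 (1112 to 1132 higher, 1561 to 1601 lower), and 772 to 815 (464 to 477 higher, 303 to 341 lower) for SCDM/FGF against SCDM, where a pseudocount of 0.1 gave 1278 (735 and 543). Protein-coding genes alone, an alternative added after the data were seen, gave 2461. Without a filter on low values, the medians of FGF ligands and receptors (0.0171), cAMP and CREB genes (0.0020), hair cell and supporting cell markers (0.039) and blood and lymphocyte markers (0.0078) changed sign, as did cAMP and CREB genes with upper quartile scaling (0.0056) and BET, P-TEFb and Myc genes without rescaling (−0.22). The counts of list members called higher or lower stayed within 1.5 times the reported count in 1298 pairs of count and setting and moved by more in 142, over 56 of the counts. Of the list medians by setting, 431 stayed within the spread, 139 moved by more and 6 reversed. The causes were not tested. Depth is unknown and limits what can be said of genes under about 1 TPM.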
